A study of Python bivittatus with 8 samples.

Results

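The genes described here were chosen for being higher 4 and 6 days after a meal than before it or 1 day after it, in ventricle tissue of the Burmese python (Python bivittatus), with little difference in log2(CPM + 1) between the fasted state and 1 day after the meal. They number 111 of the 21368 genes in the deposited table. Expression is given as CPM (the reads of a gene scaled to a library of 1000000 reads) and, for the choice of genes, as log2(CPM + 1). A gene was taken when its 1DPF and fasted means differed by less than 1.5-fold on that scale and its 4DPF and 6DPF means were each at least 0.8 above both. The higher of the 4DPF and 6DPF means also had to reach 2, which is 3 CPM, and the 4 late libraries all had to lie above the 4 early ones. These values chose the genes, so their difference between the late times (4DPF and 6DPF) and the early ones (fasted and 1DPF) is given as a description, with no test.

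The study asked what accompanies the shrinking of the python heart after its growth on feeding. The fasted group had gone 28 days without food, and the fed groups were taken 1, 4 or 6 days post-fed (1DPF, 4DPF and 6DPF) after the same fast and a rodent meal of 25% of body mass. All snakes were captive-bred with the genotype labelled WT. Poly-A RNA of snap-frozen left ventricle gave 8 libraries, with 2 in each of the 4 groups. The labels give 6 snakes for the sequencing and proteomics work, fewer than the libraries, and leave unsaid whether both libraries of a group are from different animals. SDs and p-values here therefore measure the spread between libraries, which may be in part technical.

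Python hearts enlarge within days of a large meal, chiefly through growth of existing muscle cells, and return towards fasting size as digestion ends. FoxO1, the factor in the title of the series, is a transcription factor that insulin signalling through Akt keeps out of the nucleus. In mammalian muscle, FoxO factors drive genes of protein breakdown and autophagy. The table names genes by number and does not pair the numbers with names, so no gene below was given a name, a role or a sequence. The prepared lists of FoxO targets, atrophy, autophagy, cell cycle, matrix and cell type marker genes could not be matched and were not analysed here, and the labelled tissue was not checked against its markers. In bulk tissue, more cells of a type and more RNA per cell cannot be told apart.

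Library totals ran from 33203808 to 42250755 counts, so 1 read was worth between 0.0237 and 0.0301 CPM. Replicates differed by more than sampling noise, with chi-square values of 48.6 to 67.6 for each degree of freedom. The filter on low counts left 16986 genes for testing, among them all 111. A gene near 0 before the meal could pass that filter through its late libraries alone. The smallest count of any of the 111 genes in a late library was 14 reads.

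The conditions of the rule differed greatly in how many genes they admitted. The limit on the 1DPF minus fasted difference was met by 17430 genes, while 155 genes had both late means at least 0.8 above both early means. Of those 155, 136 also met the first limit. The level of 2 left 119 genes, and the separation of late from early libraries left 111. Among genes meeting the other conditions, the 2 just outside the 0.8 limit rose by 0.793 and 0.796 in log2(CPM + 1) at the lesser of their late times, and the 2 just inside it by 0.805 and 0.827. One of the outer pair averaged 22.6 CPM fasted, 30.6 at 1DPF, 51.8 at 4DPF and 70.0 at 6DPF. All 4 late libraries lay above all 4 early ones in 6.42% of all tested genes.

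Most of the 111 genes were scarce before the meal and reached modest levels afterwards. The median gene was at 1.36 and 1.10 CPM in the fasted libraries (replicates 1 and 2), 1.33 and 0.886 CPM at 1DPF, 9.11 and 4.39 CPM at 4DPF, and 10.8 and 7.88 CPM at 6DPF. Each late median lay above each early median, and the second 4DPF library was the lowest of the late ones. In 36 of the genes all 4 early libraries were under 1 CPM, and 6 genes had no read in at least 1 early library. At the late times 82 genes averaged at least 5 CPM, 48 at least 10 CPM and 4 at least 100 CPM. Per kilobase of gene length, the median gene averaged 3.13 CPM over the late libraries and 0.45 CPM over the early ones. The median tested gene averaged 5.01 and 5.16 CPM per kilobase in the same libraries, so these genes were well below it before the rise and nearer to it after.

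**Figure D1:**
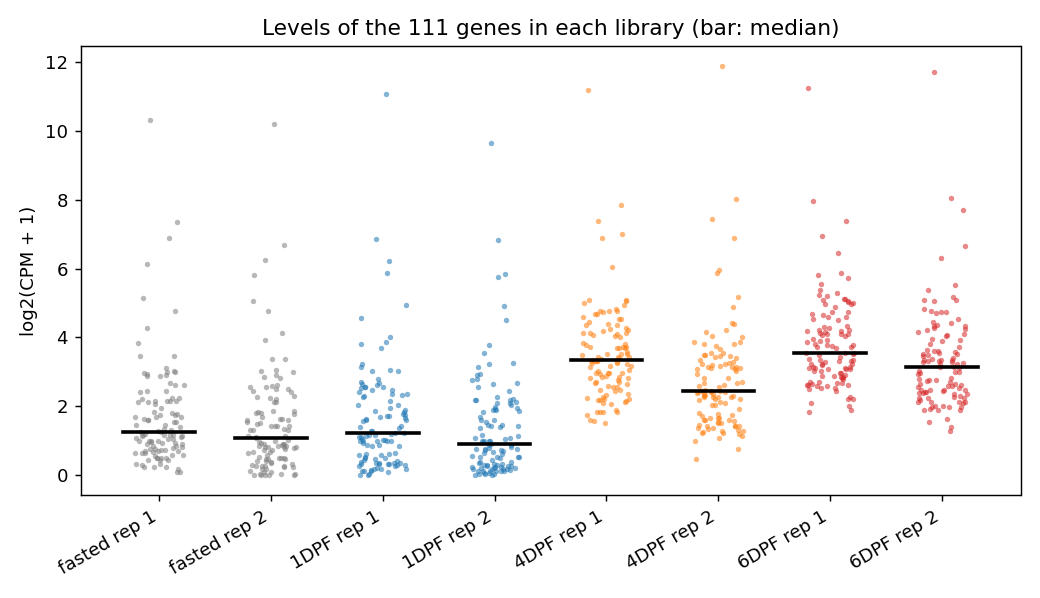
Each point is 1 of the 111 genes in 1 library, with log2(CPM + 1) on the vertical axis and the 8 libraries in time order on the horizontal axis; bars are medians. The late medians correspond to between 4.39 and 10.8 CPM and the early ones to between 0.886 and 1.36 CPM.

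The late minus early difference ranged from 0.957 to 4.09 in log2(CPM + 1), with a median of 1.71. It was at least 2 in 34 genes and at least 3 in 6. The added 1 compresses the differences of scarce genes, and in the edgeR fit, which uses the counts, the median log2 difference was 2.39 (range 0.985 to 6.47). The lowest late library lay above the highest early one by between 0.0816 and 2.24 in log2(CPM + 1), with a median of 0.72.

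The 111 genes together held 0.195% and 0.168% of the reads in fasted ventricle, 0.272% and 0.126% in the 1DPF libraries, 0.424% and 0.508% in those of 4DPF, and 0.467% and 0.514% in those of 6DPF. A single gene supplied between 52.5% and 79.7% of these reads. Without it the shares were 0.0666% and 0.0512% fasted, 0.0552% and 0.0462% in the 1DPF libraries, 0.189% and 0.131% in those of 4DPF, and 0.222% and 0.175% in those of 6DPF. The other 110 genes thus held more reads in replicate 1 than in replicate 2 of every group, whereas the single gene lay higher in replicate 2 at both late times.

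That gene, number 103065549, is 1755 bases long in the deposited table and was the most abundant of the 111 per kilobase as well as in total, at 1702 CPM per kilobase over the late libraries. It had 1288 and 1170 CPM in fasted ventricle, 2166 and 802 CPM at 1DPF, 2349 and 3761 CPM at 4DPF, and 2451 and 3384 CPM at 6DPF. The first 1DPF library lay close under the lowest late one, so the separation of late from early was narrow, at 0.12 in log2(CPM + 1). Group means were 1229 ± 83.0 CPM fasted, 1484 ± 965 at 1DPF, 3055 ± 999 at 4DPF and 2918 ± 660 at 6DPF (SD, n = 2 each). The 6DPF and 4DPF means were 2.37 and 2.49 times the fasted mean. Between 6DPF and 4DPF the libraries overlapped and the log2 change of -0.13 (SE 0.43) did not pass the test (edgeR quasi-likelihood adjusted p = 0.921).

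Gene 103060419, 3007 bases long, had the largest late minus early difference, 4.09 in log2(CPM + 1). It had 2.32 and 0.0822 CPM in fasted ventricle and 0.514 and 0.0738 CPM at 1DPF, which are 77, 3, 19 and 3 reads. At 4DPF it had 26.2 and 8.42 CPM, and at 6DPF 55.3 and 32.9 CPM. Both 6DPF libraries lay above both 4DPF libraries, and the lowest late library was well clear of the highest early one. Group means were 1.20 ± 1.58 CPM fasted, 0.294 ± 0.311 at 1DPF, 17.3 ± 12.6 at 4DPF and 44.1 ± 15.9 at 6DPF (SD, n = 2 each). The fasted libraries rest on few reads and differ widely, so the 6DPF over fasted ratio of 36.7 is poorly fixed. The step between 6DPF and 4DPF, a log2 change of 1.28 (SE 0.86), did not pass the test (edgeR quasi-likelihood adjusted p = 0.524).

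**Figure D2:**
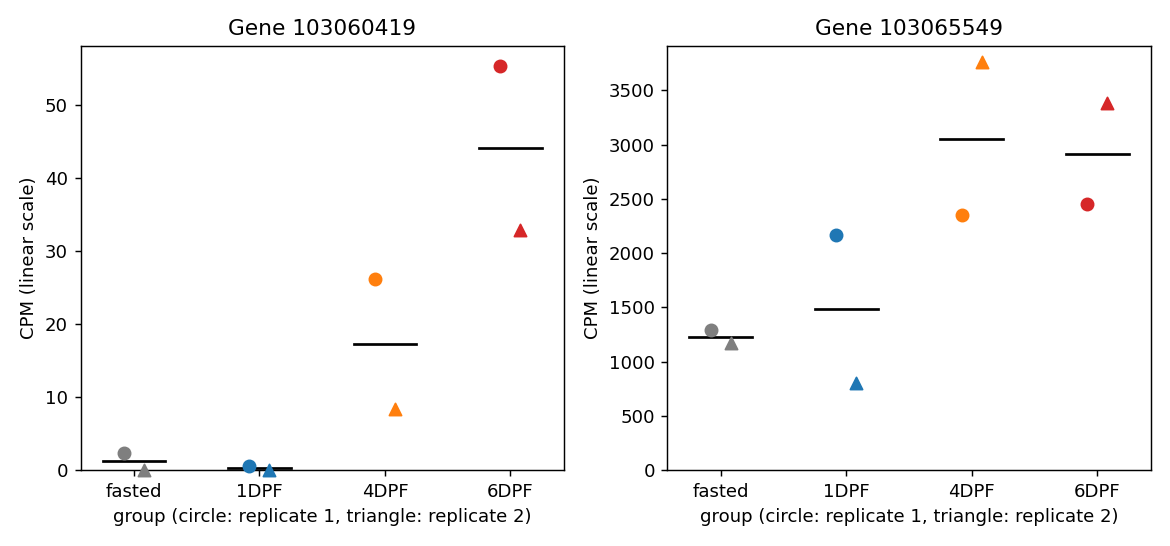
CPM on a linear scale in each library for the gene with the largest late minus early difference (left) and the most abundant gene (right); circles are replicate 1, triangles replicate 2 and lines the group means. In gene 103060419 replicate 1 is the higher library at both late times (26.2 and 55.3 CPM), and in gene 103065549 replicate 2 is (3761 and 3384 CPM).

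The rule sets no difference between 6DPF and 4DPF, and this step was tested. The rule does use the 4DPF and 6DPF values, through its limits on the late means and libraries. The p-values and shares of the 111 genes are therefore not those of genes chosen without these values. None of the 111 genes passed the edgeR test (lowest adjusted p = 0.108), against 0.0883% of all tested genes. At an unadjusted p under 0.05 there were 23 of the 111 (20.7%), 19 with a positive and 4 with a negative change, against 15.8% of all tested genes, 7.74% positive and 8.08% negative. DESeq2 called 10 of the 111, 7 higher and 3 lower at 6DPF, against 5.05% of the genes it adjusted, 2.5% higher and 2.56% lower. The count of 23 was 45 in the fit with a replicate block, where 2659 of all 16986 tested genes met that unadjusted p. It rose without 4DPF replicate 1. Without 6DPF replicate 1 it fell, and the share of the 111 genes was then below that of all tested genes. These shares describe the genes and were not tested as a set.

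By their fitted values most of the genes leaned towards 6DPF. The fitted 6DPF minus 4DPF change was positive in 82 of the 111 genes (73.9%) and negative in 29, against 50.1% positive over all tested genes. Its median was 0.37 on the log2 scale, beside 0.00163 over all tested genes, with a range of -1.34 to 2.02 and a median SE of 0.44. Changes of at least 1 were fitted in 26 genes and of -1 or below in 4. The median depended on the 4DPF libraries: it was 0.93 without 4DPF replicate 1 and 0.15 without 4DPF replicate 2, with 94 and 67 positive changes. In 40 genes both 6DPF libraries lay above both 4DPF libraries (36.0%, against 27.3% of all tested genes), in 5 both lay below (4.5%, against 18.1%), and in 66 they overlapped.

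Comparing libraries of the same replicate number gave a similar picture. In 78 genes the 6DPF library was the higher in both numbers and in 18 it was the lower in both, against 40.8% and 28.0% of all tested genes. The direction differed between numbers in the other 15. The labels do not say that a replicate number links the groups.

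When the genes were divided by their 6DPF minus 4DPF difference in log2(CPM + 1) at 1.5-fold, 3 courses appeared, all chosen after their values were seen. In 51 genes (45.9%, beside 5.79% of all tested genes) the 6DPF mean was higher than the 4DPF mean by at least that much. None of them passed the edgeR test of this step. In 34 both 6DPF libraries lay above both 4DPF libraries, against 27.3% of all tested genes, and in 17 the libraries overlapped. The cut on the means itself favours such separation, so nothing is read from this count. Their median 6DPF minus 4DPF difference and the median difference between their 4DPF replicates were both 0.94 in log2(CPM + 1). Their median was 0.964 and 0.493 CPM fasted, 0.487 and 0.271 CPM at 1DPF, 7.36 and 3.34 CPM at 4DPF, and 14.2 and 8.37 CPM at 6DPF. Their median late minus early difference was 2.11 in log2(CPM + 1), beside 1.32 in the genes within 1.5-fold and 1.63 in the genes with a lower 6DPF mean. The 4DPF and 6DPF means are terms of that difference and also made the courses, so nothing is read from this order. The means of 53 genes (47.7%, beside 91.1% of all tested genes) were within 1.5-fold of each other, with medians of 2.53 and 2.44 CPM fasted, 2.70 and 1.89 CPM at 1DPF, 9.70 and 7.08 CPM at 4DPF, and 9.44 and 8.65 CPM at 6DPF.

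The remaining 7 genes (6.31%, beside 3.07% of all tested genes) had a 6DPF mean lower than their 4DPF mean by at least 1.5-fold. Their medians were 2.02 and 1.45 CPM fasted, 2.30 and 1.65 CPM at 1DPF, 18.3 and 7.73 CPM at 4DPF, and 7.38 and 5.29 CPM at 6DPF. Their 6DPF minus 4DPF differences lay between -1.02 and -0.68. These were smaller in size than 1.23, the median difference between their 4DPF replicates. Gene 103055171, with the largest fall (-1.02), differed by only 0.24 between its own 4DPF replicates. In each other gene of this course the fall was smaller than its own 4DPF replicate difference. The 4 genes with a negative change at an unadjusted edgeR p under 0.05 were all among these 7. In those 4 both 6DPF libraries lay below both 4DPF libraries, and in the others the libraries overlapped. None of the 7 passed the edgeR test after adjustment.

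**Figure D3:**
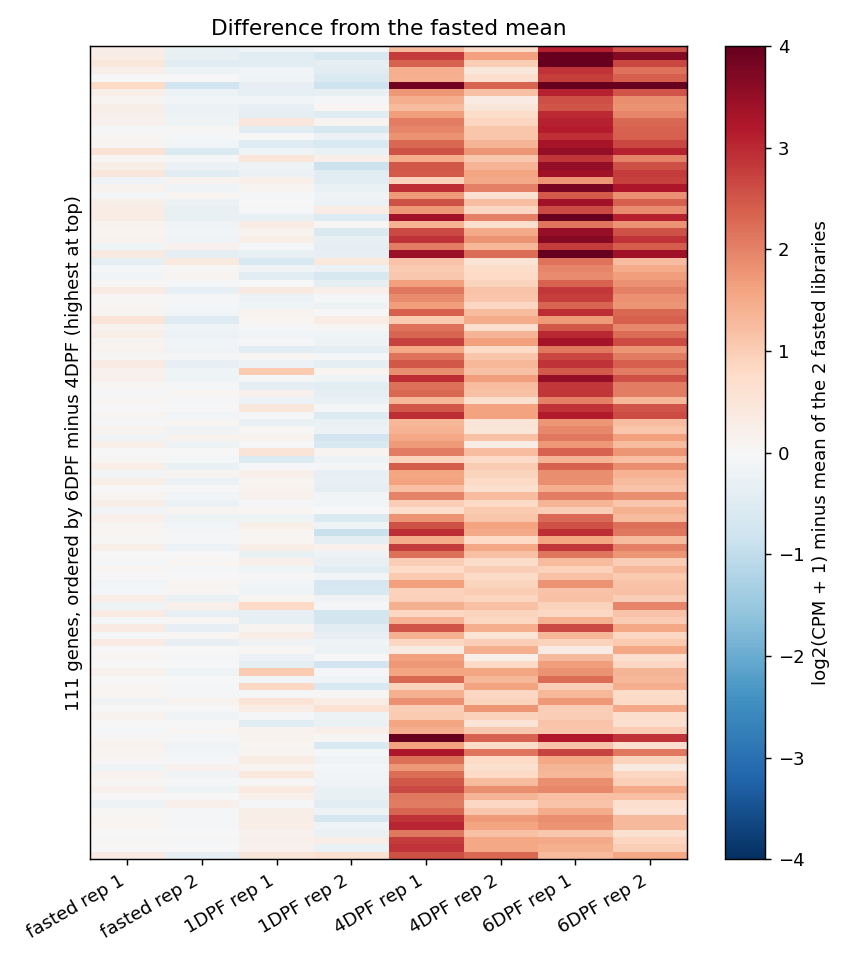
Log2(CPM + 1) of each gene (rows) in each library (columns, in time order) minus the mean of the 2 fasted libraries, with genes ordered from the highest to the lowest 6DPF minus 4DPF difference; the colour scale ends at 4 above and below. The top 51 rows have a 6DPF mean at least 1.5-fold above their 4DPF mean, the bottom 7 one at least 1.5-fold below it, and the second 4DPF column is paler than the first.

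**Figure D4:**
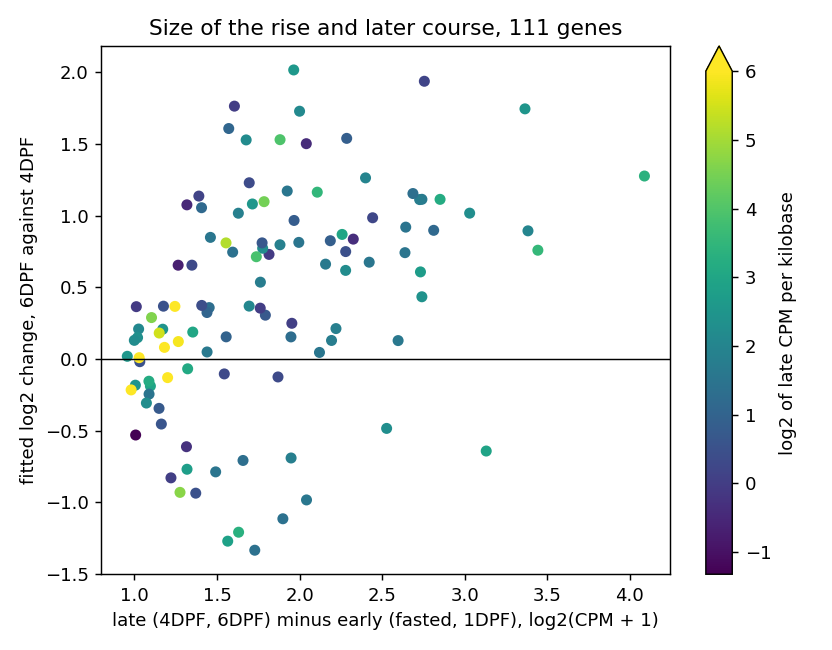
Each point is 1 of the 111 genes, with the late minus early difference in log2(CPM + 1) on the horizontal axis, the fitted log2 change of 6DPF against 4DPF on the vertical axis, and the log2 of late CPM per kilobase as colour. Of the 34 genes with a late minus early difference of at least 2, 31 had a 6DPF mean above their 4DPF mean in log2(CPM + 1). This held in 84 of the 111 genes (75.7%) and in 57.7% of all tested genes. The 4DPF and 6DPF libraries enter both measures, so nothing is read from the 31.

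The libraries of each late time differed from each other more in these genes than in the tested genes at large. Replicate 1 lay above replicate 2 in 100 of the 111 genes at 4DPF and in 98 at 6DPF, against 56.3% and 61.3% of all tested genes. The median difference, replicate 1 minus replicate 2, was 0.87 at 4DPF and 0.55 at 6DPF in log2(CPM + 1), against 0.0411 and 0.0891 over all tested genes. At 4DPF 41 genes (36.9%) differed by at least 1, against 1.45% of all tested genes. At the early times replicate 1 was also above replicate 2 in most of the genes, in 80 of the 111 genes fasted and in 90 at 1DPF, against 47.8% and 61.5% of all tested genes.

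The sizes of these differences cannot be set side by side in log2(CPM + 1), since the added 1 compresses them near 1 CPM, where the early libraries lie. As log2 ratios of CPM with nothing added, over the 106 to 111 genes with reads in both libraries of a group, the medians were 0.30 fasted, 0.54 at 1DPF, 1.08 at 4DPF and 0.62 at 6DPF. Over all tested genes with reads in both, they were -0.0141, 0.0873, 0.0506 and 0.110 at the same times. By these medians the replicate gap was widest at 4DPF, and that of 1DPF was close to that of 6DPF. By the same ratios, replicate 1 was at least 2-fold above replicate 2 in 22 of 106 genes fasted and 33 of 107 at 1DPF. At 4DPF this held in 63 of 111 genes and at 6DPF in 15 of 111. Over all tested genes the shares were 3.30%, 8.60%, 5.20% and 6.27% in time order. The 111 genes had a median early level of 1.18 CPM, while the median tested gene averaged 13.7 CPM over all 8 libraries. Their early ratios thus rest on fewer reads, which alone makes 2-fold gaps more frequent. How much of the early excess this accounts for was not tested.

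Within the late times, 6DPF replicate 1 was the highest library in 72 genes, 4DPF replicate 1 in 28, 6DPF replicate 2 in 9 and 4DPF replicate 2 in 2. Over all tested genes these libraries were the highest in 37.7%, 23.3%, 20.7% and 18.3%, in the same order. The second 4DPF library was the lowest late library in 81 genes (73.0%), against 30.03% of all tested genes. Of the early libraries, the second 1DPF library was the lowest in 64 genes (57.7%), against 33.1% of all tested genes. Replicate 1 lay above replicate 2 in all 4 groups in 58 genes, against 10.3% of all tested genes.

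The replicate differences of the 2 late times went together across the genes. Between 6DPF and 4DPF they correlated with Pearson r = 0.76 and Spearman rho = 0.62 over the 111 genes, beside 0.48 and 0.47 over all 16986 tested genes. Genes of a library share its RNA and its depth and are not independent, so no p is given. Genes with a larger late minus early difference had a larger 4DPF replicate difference (Pearson r = 0.53, Spearman rho = 0.53, over 111 genes), and both measures contain the 4DPF libraries. What the replicate number stands for was not tested.

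**Figure D5:**
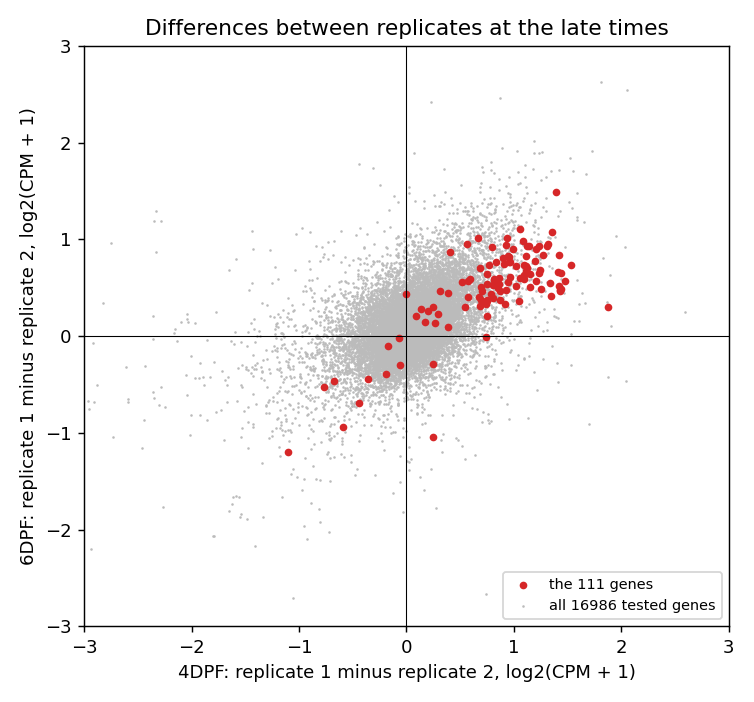
Replicate 1 minus replicate 2 in log2(CPM + 1), at 4DPF on the horizontal and 6DPF on the vertical axis, for the 111 genes (red) and all 16986 tested genes (grey; 8 lie beyond the axes at 3). In 97 of the 111 genes replicate 1 was higher at both times, against 42.3% of all tested genes.

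In 11 genes replicate 2 was the higher 4DPF library, and in 10 of these it was also the higher at 6DPF. Gene 103065549 is among them. The 4DPF difference ran from -1.10 in gene 103057637 to -0.00444 in gene 103060599, so some are near ties. Over all tested genes the median absolute 4DPF replicate difference was 0.191. The 11 genes had small late minus early differences, with a median of 1.18 and a maximum of 1.79, against a median of 1.77 among the other 100. Their median level over the late libraries was 35.6 CPM per kilobase, against 2.99 CPM per kilobase among the other 100, and their median length was 1259 against 2730.5 bases. Of the 11, 5 were under 1000 bases long, against 8 of the 100. The set was chosen by its replicate difference after the values were seen, so none of this was tested.

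Divided by the size of the late minus early difference, the genes also differed in their early level and in the gap between 4DPF replicates. The early level and the 4DPF libraries are themselves terms of that difference, so these values are a description and nothing is read from them. The 34 genes with a late minus early difference over 2 had replicate 1 higher than replicate 2 at both late times in all 34, with a median 4DPF replicate difference of 1.11 in log2(CPM + 1). Over the early libraries they had a median of 0.206 CPM per kilobase. The 35 genes between 1.5 and 2 had a median 4DPF replicate difference of 0.81 and a median early level of 0.431 CPM per kilobase. For the 42 genes under 1.5 these medians were 0.58 and 1.43 CPM per kilobase. Over the late libraries the 3 sets were closer, at medians of 3.27, 2.88 and 3.69 CPM per kilobase from the largest to the smallest rise.

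The rule did not use gene length, and the genes as a whole were of ordinary length. Their median was 2602 bases (range 460 to 8659), beside 2503 bases over all tested genes. Genes under 1000 bases made up 13 of the 111 (11.7%), beside 13.4% of all tested genes. These 13 had late minus early differences between 0.98 and 1.79 in log2(CPM + 1), and on that scale none was among the 34 genes over 2. The added 1 compresses the differences of the scarce ones. In the edgeR fit on counts, the late against early log2 difference of the 13 ran from 0.985 (gene 103054907, 571 bases) to 4.09 (gene 103063146, 723 bases).

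The limit on the 1DPF minus fasted difference was set on log2(CPM + 1), where it is loose for genes near 0. The mean at 1DPF was below the fasted mean in 80 of the 111 genes, against 48.5% of all tested genes. In the edgeR fit on counts, 39 of the 111 (35.1%, beside 34.8% of all tested genes) differed by 1.5-fold or more between 1DPF and fasted, with a median log2 change of -0.24 and a range of -3.44 to 2.24. The edgeR test called 3 of the 111, all lower at 1DPF, against 9.66% of all tested genes called in that direction, a share that the limit itself holds down. In these 3 the fasted libraries did not exceed 1.05 CPM. The count was 0 without either fasted library and 1 without 6DPF replicate 2. DESeq2 called 7, with 6 lower and 1 higher, against 1921 lower and 1962 higher among the 21368 genes given to it. Those 21368 include genes with no read in any library, which could not be called, so a share of that total would be too low. The limit holds down this count of 7 as well. The fit with a replicate block called 8, with 7 lower and 1 higher. Over all 16986 tested genes that fit called 1499 lower and 1427 higher. Without 1DPF replicate 2 the calls were 1 lower and 1 higher gene, and 0 of the 3 was among them. Without 1DPF replicate 1 there were 3 calls, and 1 of them was among the 3.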

How the data were processed

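Raw counts of reads for each gene were deposited by the authors in a single table of 8 libraries, which also lists gene lengths (bases), as its header shows. The submitters' processing notes name featureCounts, HISAT2 2.1.0, Trimmomatic 0.36, DESeq2 1.36.0 and SAMtools 1.8. Genome build, annotation, strand setting and the treatment of reads shared by several genes were not given in the sources used here, so counts of overlapping or near-identical genes are uncertain. Columns were matched to samples by their description labels.

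CPM was the count over the column total. Counts were then filtered (edgeR filterByExpr, minimum count 10, minimum total 15), scaled with TMM factors (0.9623 to 1.066) and fitted over all 8 libraries with group as the sole term (edgeR 4.0.16, R 4.3.3, quasi-likelihood F test, two-sided, 4 residual degrees of freedom). P-values were adjusted after Benjamini and Hochberg over 16986 genes, with calls under 0.05, and SEs were taken from the log2 change and F. The late against early contrast set the mean of 4DPF and 6DPF against that of fasted and 1DPF. The edgeR fit alone was also run on simulated counts, for 6DPF against 4DPF and for late against early. Those counts were drawn independently, with no shift linked to the replicate number. The rule, the 1DPF against fasted step and the alternatives were not simulated. Alternatives were DESeq2 1.42.0, RLE factors, other filters, the replicate number as a block, other limits of the rule and each library left out.

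The members, lists and tests were chosen with earlier results of these data known. The rule for named genes took 2 identifiers when no gene could be named: the gene with the largest late minus early difference and the gene with the highest late CPM. The planned gene list counts and promoter motifs were not run.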

Additional observations from a re-analysis of the deposited data

How the results depend on the processing

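The rule gave 72 genes with a size limit of 1.0 and 168 with 0.6, and between 91 and 136 with 1 library left out. With 1 library left out, the rule kept between 74 of the 111 genes (without 4DPF replicate 1) and 107 (without 4DPF replicate 2 or 6DPF replicate 2). With TMM-scaled CPM it gave 111 genes, 107 of them the same, and with a pseudocount of 0.5 it gave 101, 89 of them among the 111. For 6DPF against 4DPF, edgeR called 15 genes in all, 33 without a filter, 0 in the fit with a replicate block (2659 at an unadjusted p under 0.05) and between 0 and 11 with 1 library left out, while DESeq2 called 731. Of the 111 genes, 10 were called by DESeq2 and 0 under every other alternative run, leave-one-out fits included. For late against early, edgeR called 1406 genes and DESeq2 2488. Leaving out 1 library gave 345 and 114 (fasted replicates 1 and 2), 874 and 418 (1DPF), 596 and 639 (4DPF) and 865 and 420 (6DPF). For 1DPF against fasted, 3268 genes were called, and 716 to 3042 with 1 library left out. Of the 111, 8 were called with the block, 7 by DESeq2 and 0 to 3 with 1 library left out. What causes the changes was not tested. With the block, the median 6DPF against 4DPF change of the 111 genes was 0.54. Across all tested genes the differences between replicates at 6DPF and 4DPF had a correlation of 0.43 on TMM-scaled log2 CPM with a prior count of 2 (0.48 on log2(CPM + 1)). Those of the other pairs of groups lay at -0.34 to 0.086. The labels do not say that a replicate number links the groups, so the main fit had no term for it. For 6DPF against 4DPF the correlations leave pairing undecided. There the block put 45 of the 111 genes at an unadjusted edgeR p under 0.05, against 23 in the main fit. Leaving 1 library in a group assumes that it varies like the others. With 2 libraries a group and early levels near 1 CPM, small differences could not be told apart.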
